A study of Homo sapiens with 15 samples.

Results

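Transcript levels of 9 genes that p53 is known to activate (MDM2, CDKN1A, GADD45A, SESN1, SESN2, ZMAT3, TP53I3, TNFRSF10B and FAS) were followed in platinum-sensitive and platinum-resistant derivatives of OVCAR4, an established human line of high-grade serous ovarian carcinoma. The genes were taken by symbol from a table of 16604 genes, in which all 9 were measured. Polyadenylated RNA was sequenced from 5 lines with 3 replicates each, which the series describes as biological replicates. Ovcar4Parental is the starting line, sensitive to both carboplatin and cisplatin. Ov4Cis was selected by growth in rising cisplatin and Ov4Carbo by growth in rising carboplatin, and Ov4Carbo4 and Ov4Carbo7 are lines each grown from a single cell of Ov4Carbo, so that each clone stands for 1 cell of that population. All lines share the OVCAR4 background and were cultured in DMEM with serum, and the labels do not state whether drug was present at harvest. Each resistant line is the product of 1 selection or 1 cloning, so differences between lines cannot be told apart from differences between individual selections.

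The protein p53 is a transcription factor that is stabilised after DNA damage, such as the crosslinks made by platinum drugs, and then activates genes for cell cycle arrest, repair, metabolic restraint and apoptosis. MDM2, itself a target, encodes the ubiquitin ligase that marks p53 for degradation, which closes a negative feedback loop. Several of these genes also respond to other signals: GADD45A and SESN2 to stress pathways that do not need p53, CDKN1A to growth factor and differentiation signals, and FAS to cytokines.

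The elements through which p53 is known to act are shown here for the members in which the search found them, since the levels of these genes are compared below. Promoters of 7 of the 9 genes were present in the RefSeq table (GRCh38.p14). The 250 bases before each of their 15 annotated starts were searched whole for the p53 response element consensus, a run of 20 letters made of a repeated palindromic unit of 10 letters with no spacer, which reads alike on both strands. At most 2 letters differed from the consensus in 3 promoters of 2 genes, MDM2 and FAS, where the MDM2 promoters share the same element. Such a match was present in 0.561% of all 35114 promoters of that length. With at most 3 letters different, which 4.36% of all promoters reach, SESN1 was added. The capitals mark the 20 letters closest to the consensus, and each sequence is written on the strand of its gene. The MDM2 stretch lies at chr12:68808767-68809001 on the plus strand, upstream of the second group of MDM2 starts, and the element begins 94 bases before the start. It is printed up to the first annotated exon base, short of that start. The FAS stretch lies at chr10:88991304-88991333 on the plus strand, and its element begins 122 bases before a FAS start. The SESN1 stretch lies at chr6:109008989-109009238 on the minus strand, with the element beginning 49 bases before the start.
MDM2: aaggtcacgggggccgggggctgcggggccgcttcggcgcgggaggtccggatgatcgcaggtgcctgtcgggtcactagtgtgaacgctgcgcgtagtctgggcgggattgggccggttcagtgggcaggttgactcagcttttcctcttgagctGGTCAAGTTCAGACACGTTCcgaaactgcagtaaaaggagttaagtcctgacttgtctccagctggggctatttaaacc
FAS: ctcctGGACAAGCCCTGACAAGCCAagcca
SESN1: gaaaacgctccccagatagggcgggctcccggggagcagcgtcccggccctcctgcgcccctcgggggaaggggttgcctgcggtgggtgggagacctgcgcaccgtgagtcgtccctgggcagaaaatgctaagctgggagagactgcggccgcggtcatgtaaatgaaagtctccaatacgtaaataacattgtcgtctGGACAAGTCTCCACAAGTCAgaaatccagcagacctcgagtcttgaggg
Within the 250 bases, the closest stretch for CDKN1A, SESN2, TP53I3 and ZMAT3 differed from the consensus by 4 letters or more. Sequence outside those bases was not searched for any gene. These matches describe sequence only, and no binding of p53 was measured.

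Values are log2 RPKM, the authors' read density scaled for library size, transcript length and GC content, so that a difference of 1 is a 2-fold change and levels can be set beside each other between genes. Read depth is unknown, and the medians of all 15 samples lay at 2.77. The serous marker PAX8 was high in every line (line means 5.85 to 6.74), whereas WT1 was low (line means -5.07 to -1.52), and EPCAM, KRT7, KRT8 and KRT18 were lower than in the parental line in all 4 resistant lines. EPCAM had line means of 5.98 in the parental line, 1.17 in Ov4Cis and 3.01 to 5.32 in the carboplatin lines, and KRT7 of 8.28, -0.57 and 5.48 to 6.08. MUC16 was lower in Ov4Cis and Ov4Carbo7. Among markers of other cell types, PTPRC, CD3E, ITGAM, PECAM1, TEK and DCN were not in the table analysed, and CD14, VWF, PDGFRB and LUM had line means of at most 0.58. The endothelial gene CDH5 had line means of 2.15 to 5.13, highest in Ov4Cis, and the fibroblast gene COL1A1 of 2.26 to 3.63. The part of these markers in the results was not tested. In bulk RNA, fewer cells that express a gene and less RNA per cell cannot be told apart. Numbers in the sample titles fall into 2 separate ranges, whose meaning is not given. Ov4Carbo4, Ov4Carbo7 and replicate 1 of Ov4Carbo are in the lower range and all other samples in the higher. Only Ov4Carbo has samples in both, so a term for the ranges is set by its replicate 1 against its replicates 2 and 3. Where a clone is compared with the parental line or Ov4Carbo, values with that term therefore carry the deviation of this 1 library. They cannot tell a difference between ranges from a deviation of that library. Replicate 1 of Ov4Carbo also stood apart from the other 2 replicates of its line for several of the genes described here.

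The 9 genes took no common direction in the resistant lines. A gene was called changed when limma's moderated test gave a Benjamini-Hochberg adjusted p under 0.05 over all 16604 genes. Against the parental line, 0 of the 9 changed in Ov4Cis, where 36.2% of all genes did. In limma without adjustment, 4 of the 9 (SESN2, TP53I3, TNFRSF10B and FAS) were under 0.05 in that comparison, against 45.1% of all genes. In Ov4Carbo 3 of the 9 changed, with SESN1 and TNFRSF10B higher and FAS lower (34.0% of all genes changed). In Ov4Carbo4 2 changed, ZMAT3 and FAS, both lower (39.7% of all genes). In Ov4Carbo7 2 changed, SESN1 and TNFRSF10B, both higher (42.6% of all genes). Leaving out Ov4Carbo replicate 1 moved the count from 0 to 3 in Ov4Cis, from 3 to 6 in Ov4Carbo and from 2 to 5 in Ov4Carbo7. In Ov4Cis and Ov4Carbo7 the fold changes are the same without that library, and the estimate of the spread, which all lines share, is smaller for the genes gained. Leaving out Ov4Carbo replicate 2 lowered the count in Ov4Carbo to 1, and leaving out Ov4Carbo4 replicate 3 lowered that in Ov4Carbo4 to 1.

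**Figure D1:**
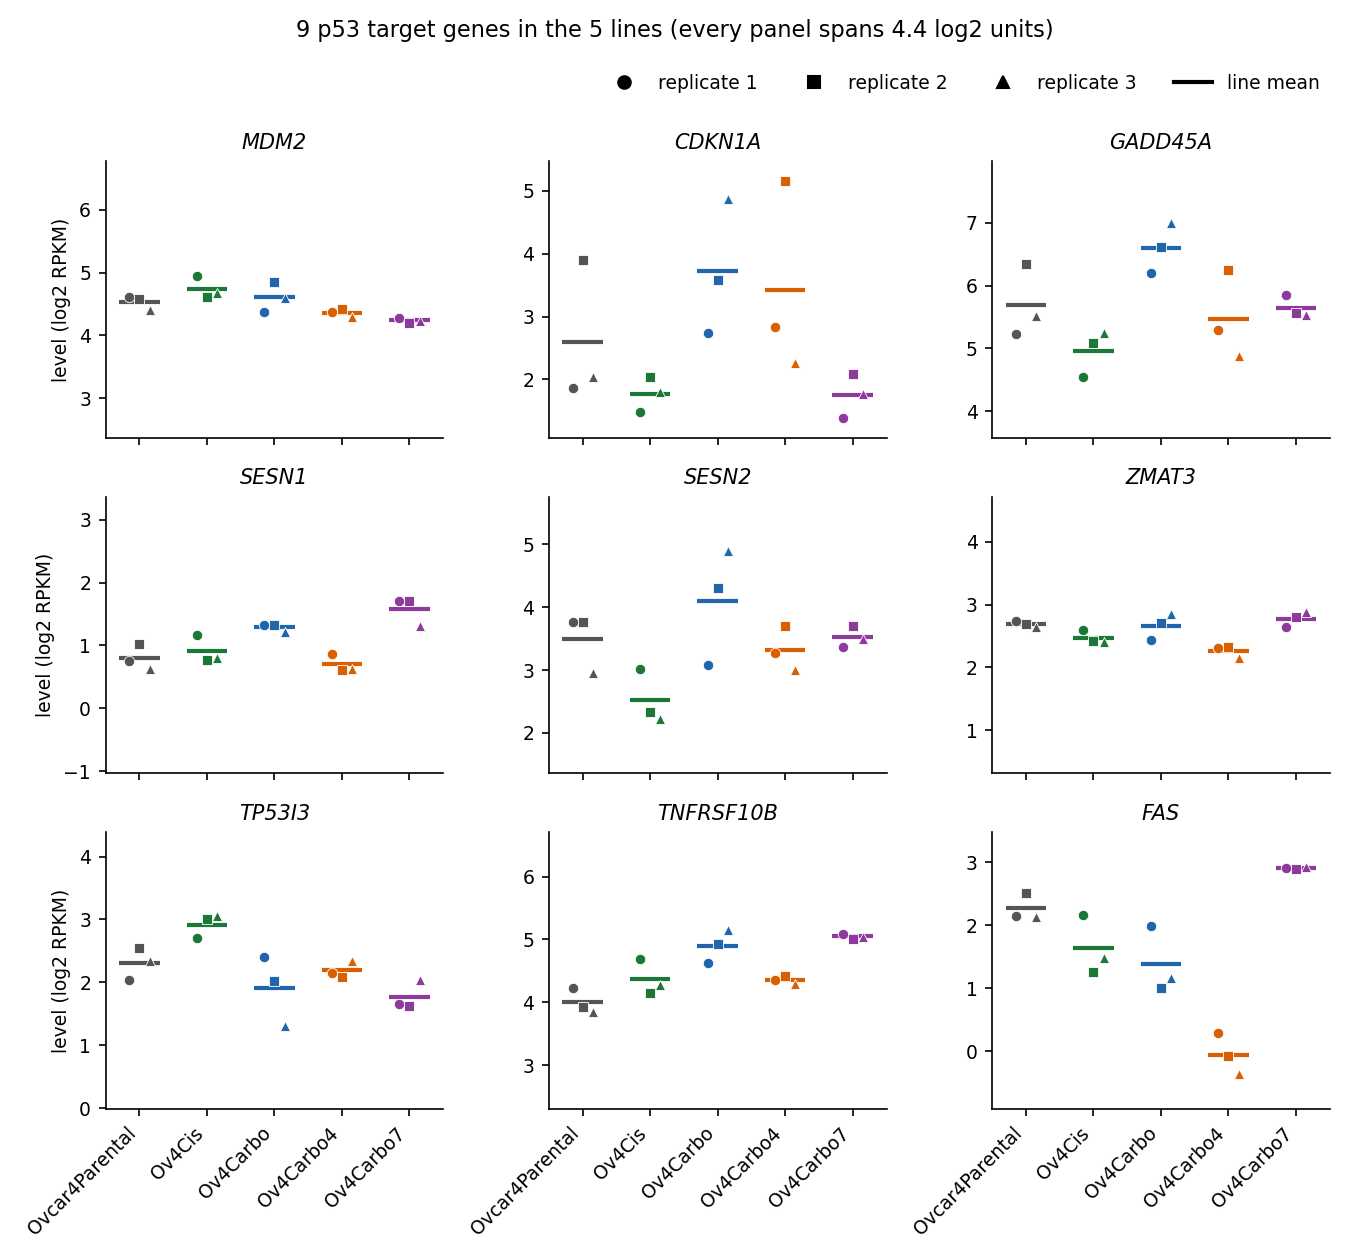
Level of each of the 9 genes in log2 RPKM (vertical axis) in the 5 lines (horizontal axis), with a symbol for each replicate and a bar at the line mean. FAS separates Ov4Carbo7 (2.89 to 2.92) from Ov4Carbo4 (-0.36 to 0.28), while the replicates of CDKN1A spread widely within Ovcar4Parental, Ov4Carbo and Ov4Carbo4.

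Across the 4 resistant lines, 5 of the 9 genes (MDM2, CDKN1A, GADD45A, SESN2 and TP53I3) changed against the parental line in no line, as did 25.9% of all genes. No member changed in the same direction in all 4 lines, which 7.75% of all genes did. None was higher in some lines and lower in others, against 10.7% of all genes. When the 5 lines were compared at once with limma's moderated F-test, 8 of the 9 genes differed among lines, all but CDKN1A (adjusted p = 0.0708), and 76.9% of all genes did.

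**Figure D2:**
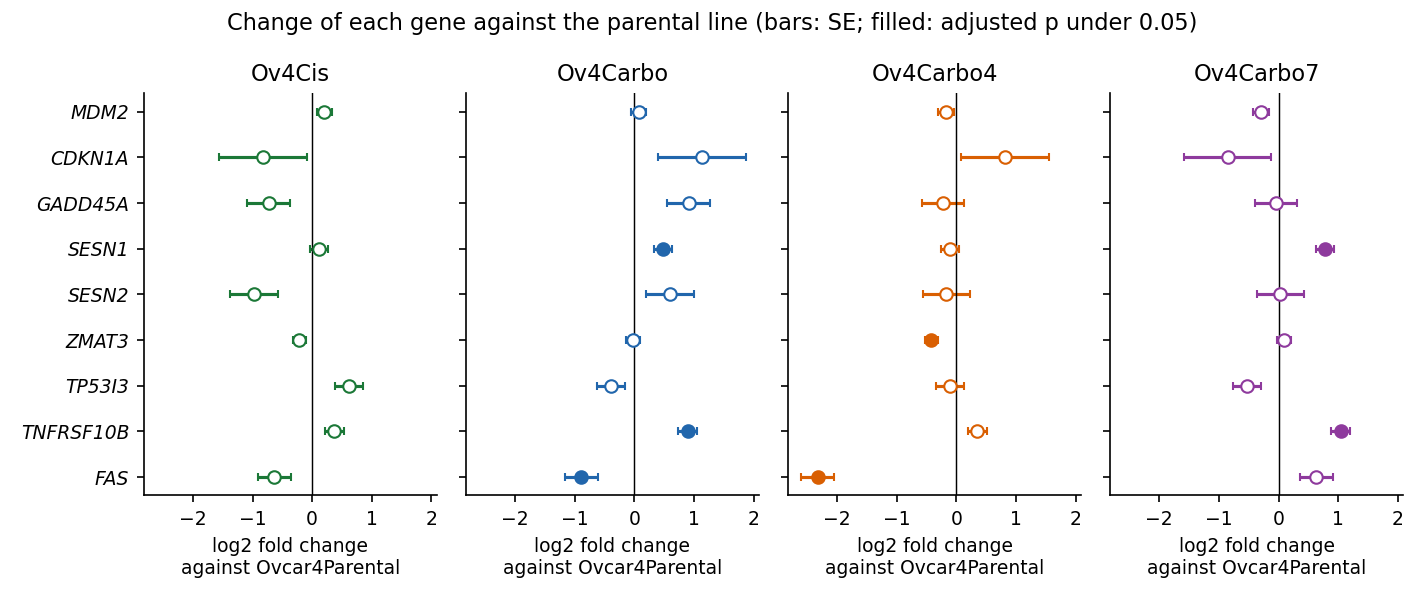
log2 fold change of each gene against Ovcar4Parental (horizontal axis, one panel per resistant line), with bars of 1 SE on each side and filled points where the adjusted p was under 0.05. The 7 filled points are SESN1 and TNFRSF10B in Ov4Carbo and Ov4Carbo7, FAS in Ov4Carbo and Ov4Carbo4, and ZMAT3 in Ov4Carbo4.

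MDM2 had a small range across the lines, although it passed the F-test (adjusted p = 0.020 in limma). Its parental values were 4.61, 4.59 and 4.40 log2 RPKM, those of Ov4Cis 4.94, 4.61 and 4.67, and those of Ov4Carbo 4.38, 4.86 and 4.60. Ov4Carbo4 had 4.37, 4.42 and 4.29, and Ov4Carbo7 had 4.28, 4.20 and 4.24. The line means spanned from 4.74 ± 0.18 in Ov4Cis (SD, n = 3) to 4.24 ± 0.04 in Ov4Carbo7, and no neighbouring pair of lines in the order Ov4Cis, Ov4Carbo, Ovcar4Parental, Ov4Carbo4, Ov4Carbo7 differed (adjusted p 0.30 to 0.67). The ends of that order did differ: MDM2 was 1.41-fold higher in Ov4Cis than in Ov4Carbo7 (log2 difference 0.50, SE 0.127, adjusted p = 0.0078 in limma). MDM4, a relative of MDM2 that inhibits p53 without degrading it, did not pass the F-test (adjusted p = 0.44). Its level was 3.07 in Ov4Carbo replicate 1 and 4.58 and 4.14 in the other replicates of that line, and without replicate 1 MDM4 was higher in Ov4Carbo than in the parental line (log2 difference 1.02, adjusted p = 0.0065). When a term for the title ranges was added to the fit, MDM4 also passed in Ov4Carbo4 and Ov4Carbo7. Its log2 differences from the parental line there were 1.49 and 1.37 (adjusted p = 0.015 and 0.025 in limma), against 0.20 and 0.08 without the term. For the clones that term rests on the low value of Ov4Carbo replicate 1 alone, so no rise of MDM4 in them can be read from it.

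CDKN1A encodes p21, the inhibitor of cyclin-dependent kinases through which p53 arrests the cell cycle. Its replicates were 1.86, 3.90 and 2.05 log2 RPKM in the parental line, 1.48, 2.04 and 1.81 in Ov4Cis, and 2.74, 3.57 and 4.87 in Ov4Carbo. They were 2.83, 5.15 and 2.26 in Ov4Carbo4 and 1.38, 2.09 and 1.77 in Ov4Carbo7. Replicate 2 of the parental line and of Ov4Carbo4 and replicate 3 of Ov4Carbo stood well above the others of their lines, whereas Ov4Cis and Ov4Carbo7 were uniformly low. The pooled SD within lines was 0.997, larger than that of 99.01% of all genes, for which the median was 0.213. Differences from the parental line ranged from -0.85 in Ov4Carbo7 to 1.13 in Ov4Carbo with an SE of 0.736, and none passed the test (adjusted p 0.26 to 0.42 in limma). The lines Ov4Cis and Ov4Carbo7 lay wholly below Ov4Carbo, by 1.96 and 1.98 on the log2 scale, with adjusted p values of 0.057 and 0.052. These 2 differences passed in 10 and 9 of the alternative settings. Among these were the fits without Ov4Carbo replicate 1, without parental replicate 2, and without Ov4Carbo4 replicate 2 or 3. With a term for the title ranges the difference of Ov4Carbo7 from Ov4Carbo shrank to -0.9985 and did not pass. With that term the difference of Ov4Carbo7 from the parental line moved from -0.85 to 0.62, and it passed in neither fit. Both moves rest on Ov4Carbo replicate 1 against the rest of its line. They cannot tell a difference between ranges from a deviation of that library.

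GADD45A, which encodes a growth arrest protein induced by DNA damage, was the most abundant of the 9 genes. Its levels were 5.23, 6.34 and 5.51 log2 RPKM in the parental line, 4.55, 5.09 and 5.25 in Ov4Cis, 6.20, 6.61 and 6.9997 in Ov4Carbo, 5.29, 6.25 and 4.88 in Ov4Carbo4, and 5.85, 5.56 and 5.54 in Ov4Carbo7. Ov4Carbo was the highest line and Ov4Cis the lowest, and these 2 did not overlap. GADD45A was 3.11-fold lower in Ov4Cis than in Ov4Carbo (log2 difference -1.64, SE 0.359, adjusted p = 0.0040 in limma). It was 2.19-fold lower in Ov4Carbo4 than in Ov4Carbo (adjusted p = 0.023), but Ov4Carbo4 replicate 2 reached the range of Ov4Carbo, and the call is lost without Ov4Carbo replicate 2 or 3 or Ov4Carbo4 replicate 1 or 3. Against the parental line the values were -0.73 in Ov4Cis and 0.91 in Ov4Carbo, with adjusted p values of 0.13 and 0.069.

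SESN1 and SESN2 encode sestrins, which restrain mTORC1 signalling under stress, and they moved differently. SESN1 measured 0.76, 1.03 and 0.62 log2 RPKM in the parental line, 1.17, 0.76 and 0.80 in Ov4Cis, 1.32, 1.33 and 1.21 in Ov4Carbo, 0.87, 0.62 and 0.62 in Ov4Carbo4, and 1.71, 1.71 and 1.31 in Ov4Carbo7. Every replicate of Ov4Carbo and Ov4Carbo7 was above every parental one. SESN1 rose 1.40-fold in Ov4Carbo (log2 0.49, SE 0.151, adjusted p = 0.026 in limma) and 1.71-fold in Ov4Carbo7 (log2 0.77, SE 0.151, adjusted p = 0.0013). In the order Ov4Carbo7, Ov4Carbo, Ov4Cis, Ovcar4Parental, Ov4Carbo4, no neighbours differed (adjusted p 0.071 to 0.63). The call in Ov4Carbo is lost when Ov4Carbo replicate 2 or parental replicate 1 or 3 is left out, and the call in Ov4Carbo7 when a term for the title ranges is added (log2 0.72, adjusted p = 0.078).

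SESN2 measured 3.77, 3.76 and 2.95 log2 RPKM in the parental line, 3.02, 2.33 and 2.21 in Ov4Cis, 3.07, 4.30 and 4.90 in Ov4Carbo, 3.28, 3.70 and 2.99 in Ov4Carbo4, and 3.37, 3.70 and 3.50 in Ov4Carbo7. Ov4Cis was the lowest line and Ov4Carbo the highest and most variable (SD 0.93). SESN2 was 2.97-fold lower in Ov4Cis than in Ov4Carbo (log2 difference -1.57, SE 0.399, adjusted p = 0.0094 in limma), without overlap. Against the parental line its values were -0.97 in Ov4Cis (adjusted p = 0.075) and 0.60 in Ov4Carbo (adjusted p = 0.27). Without Ov4Carbo replicate 1 both passed, at -0.97 and 1.11, each with an adjusted p of 0.017. With a term for the title ranges the value of SESN2 in Ov4Carbo7 against the parental line moved from 0.03 to 1.56 (adjusted p = 0.045). That move rests on the low value of Ov4Carbo replicate 1 alone, so no rise in Ov4Carbo7 can be read from it.

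ZMAT3, which encodes an RNA-binding zinc finger protein, had the smallest spread within lines of the 9 genes (pooled SD 0.126). Its levels were 2.73, 2.68 and 2.64 log2 RPKM in the parental line, 2.60, 2.42 and 2.40 in Ov4Cis, 2.44, 2.71 and 2.84 in Ov4Carbo, 2.32, 2.33 and 2.15 in Ov4Carbo4, and 2.65, 2.80 and 2.87 in Ov4Carbo7. Ov4Carbo4 was below every other line. ZMAT3 fell 1.34-fold in Ov4Carbo4 against the parental line (log2 -0.42, SE 0.114, adjusted p = 0.011 in limma). That call is lost without Ov4Carbo4 replicate 3, and with a term for the title ranges the difference is -0.08 (adjusted p = 0.75).

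TP53I3 encodes PIG3, a quinone oxidoreductase linked to oxidative stress in p53-dependent apoptosis, and was highest in Ov4Cis. It measured 2.70, 2.9995 and 3.06 log2 RPKM there, 2.04, 2.54 and 2.33 in the parental line, 2.40, 2.02 and 1.31 in Ov4Carbo, 2.15, 2.09 and 2.34 in Ov4Carbo4, and 1.65, 1.63 and 2.04 in Ov4Carbo7. Ov4Cis overlapped no other line. FAM228B overlaps TP53I3 on the opposite strand, and CPM overlaps MDM2 in the same way, so that reads there could not be assigned without knowing the strandedness of counting. TP53I3 in Ov4Cis was 2.01-fold above Ov4Carbo (adjusted p = 0.0060 in limma), 1.66-fold above Ov4Carbo4 (adjusted p = 0.025) and 2.21-fold above Ov4Carbo7 (adjusted p = 0.0021). The rise of 0.61 over the parental line had an adjusted p of 0.060, and it passed in 7 of the alternative settings, among them the one without Ov4Carbo replicate 1 (adjusted p = 0.027).

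TNFRSF10B encodes DR5, a receptor for the death ligand TRAIL, and was higher in Ov4Carbo and Ov4Carbo7. Parental replicates had 4.23, 3.93 and 3.85 log2 RPKM, those of Ov4Cis 4.69, 4.16 and 4.27, those of Ov4Carbo 4.62, 4.93 and 5.16, those of Ov4Carbo4 4.35, 4.43 and 4.29, and those of Ov4Carbo7 5.09, 5.01 and 5.04. The parental line was the lowest, and the 3 carboplatin lines did not overlap it. TNFRSF10B rose 1.86-fold in Ov4Carbo (log2 0.90, SE 0.160, adjusted p = 0.0011 in limma) and 2.06-fold in Ov4Carbo7 (log2 1.04, SE 0.160, adjusted p = 2.2e-04). Both passed an adjusted p of 0.05 in every alternative fit, where the log2 values ranged from 0.77 to 1.04 and from 0.97 to 1.47, but the rise in Ov4Carbo does not reach a log2 fold change of 1. In the order Ov4Carbo7, Ov4Carbo, Ov4Cis, Ov4Carbo4, Ovcar4Parental the only step between neighbours that passed was that from Ov4Carbo to Ov4Cis (0.53, adjusted p = 0.023). The values for Ov4Cis and Ov4Carbo4 against the parental line were 0.37 and 0.35 (adjusted p = 0.093 and 0.099). With a term for the title ranges the value for Ov4Carbo4 was 0.77 and passed (adjusted p = 0.043). RHOBTB2 overlaps TNFRSF10B on the opposite strand. The strandedness of counting is not given, so reads of the overlap could not be assigned to either gene. The log2 difference of RHOBTB2 itself in Ov4Carbo7 was -0.12 (adjusted p = 0.75).

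FAS encodes the receptor of FAS ligand, which triggers apoptosis at the cell surface, and had the largest differences of the 9 genes. Its levels were 2.15, 2.52 and 2.14 log2 RPKM in the parental line, 2.17, 1.26 and 1.48 in Ov4Cis, 1.99, 1.00 and 1.16 in Ov4Carbo, 0.28, -0.08 and -0.36 in Ov4Carbo4, and 2.90, 2.89 and 2.92 in Ov4Carbo7. The 2 clones of Ov4Carbo lay on opposite sides of the population they came from, without overlap. FAS fell 5.01-fold in Ov4Carbo4 (log2 -2.33, SE 0.275, adjusted p = 3.6e-05 in limma) and 1.85-fold in Ov4Carbo (log2 -0.89, adjusted p = 0.026) against the parental line. In Ov4Carbo7 it stood 0.64 above the parental line, with every replicate above every parental one but an adjusted p of 0.081. In the order Ov4Carbo7, Ovcar4Parental, Ov4Cis, Ov4Carbo, Ov4Carbo4 only the last step passed the test (1.44, adjusted p = 0.0014). The fall in Ov4Carbo4 held in every alternative fit and under both stricter thresholds (log2 -3.23 to -1.57). The fall in Ov4Carbo did not pass without Ov4Carbo replicate 2, without Ov4Carbo replicate 3 or without parental replicate 2, and with a term for the title ranges the difference of Ov4Carbo7 from the parental line turned to -0.27 (adjusted p = 0.65).

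The clones were also compared with Ov4Carbo and with each other. Each was grown from a single cell, so differences already present in the population and changes after cloning cannot be told apart. Between Ov4Carbo4 and Ov4Carbo, 5 of the 9 genes changed and all 5 were lower in the clone (GADD45A, SESN1, ZMAT3, TNFRSF10B and FAS), where 42.2% of all genes changed and 19.2% were lower. Between Ov4Carbo7 and Ov4Carbo, 2 changed, with MDM2 lower and FAS higher (36.6% of all genes changed). Between Ov4Carbo7 and Ov4Carbo4, 4 changed and all 4 were higher in Ov4Carbo7, where 51.1% of all genes changed and 24.0% were higher. These 4 were FAS (7.79-fold, log2 2.96, SE 0.275, adjusted p = 3.4e-06 in limma), SESN1 (1.84-fold, adjusted p = 4.0e-04), TNFRSF10B (1.61-fold, adjusted p = 0.0031) and ZMAT3 (1.42-fold, adjusted p = 0.0025). All 6 samples of the clones lie in the same range of title numbers, and the 4 calls between the clones held in every alternative fit. FAS alone of these 4 met a threshold of 1 on the absolute log2 fold change. Of the 5 calls between Ov4Carbo4 and Ov4Carbo, FAS alone held when a term for the title ranges was added (log2 -2.04). With that term the higher FAS in Ov4Carbo7 than in Ov4Carbo did not pass (log2 0.92, adjusted p = 0.064). Leaving out Ov4Carbo replicate 1 raised the count between Ov4Carbo4 and Ov4Carbo to 7. Without Ov4Carbo replicate 3 or Ov4Carbo4 replicate 3 that count fell to 2, the calls of ZMAT3 and TNFRSF10B being lost in both cases. Without Ov4Carbo replicate 1 the count between Ov4Carbo7 and Ov4Carbo rose to 5, and without Ov4Carbo replicate 2 or 3 or any replicate of Ov4Carbo7 it fell to 1.

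Selection by cisplatin and by carboplatin was compared directly between Ov4Cis and Ov4Carbo. Of the 9 genes, 4 changed against 34.2% of all genes. TP53I3 was higher in Ov4Cis, and GADD45A, SESN2 and TNFRSF10B were lower. Of these calls, that of TNFRSF10B (1.44-fold, adjusted p = 0.023 in limma) is lost without Ov4Carbo replicate 2 or 3 or without Ov4Cis replicate 2 or 3, and the groups overlap for it. Without Ov4Carbo replicate 1 the count rose to 6.

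Within lines, some genes shared their highest replicate with CDKN1A. The replicate with the highest CDKN1A also had the highest GADD45A in 3 of the 5 lines, and the same held for SESN2 in 3 lines, which 17.9% of all genes reach. BTG2, an antiproliferative gene also induced by p53 and by growth stimuli, shared the highest replicate in 4 of 5 lines, which 3.65% of all genes reach, and was picked out after its values were seen. Of the other p53 targets and relatives examined in the same way, PMAIP1 and BBC3 shared it in 3 lines, GDF15 in 2, GADD45B in 1 and MDM4 in 0. In Ov4Carbo4 replicate 2, CDKN1A was 5.15 against a mean of 2.54 in the other 2 replicates, GADD45A 6.25 against 5.08, SESN2 3.70 against 3.14 and BTG2 7.07 against 4.86. In parental replicate 2, CDKN1A was 3.90 against 1.95, GADD45A 6.34 against 5.37 and BTG2 5.73 against 4.002. MDM2 and ZMAT3 were also highest in Ov4Carbo4 replicate 2, by less: they were 4.42 against 4.33 and 2.33 against 2.23. They shared the highest replicate with CDKN1A in 1 and 2 of the 5 lines, which 81.1% and 46.7% of all genes reach. The remaining members were no closer: SESN1, TP53I3 and FAS shared it in 1 line each and TNFRSF10B in 2. Over the 15 samples, Pearson's r was 0.77 between CDKN1A and GADD45A, 0.73 between GADD45A and SESN2, 0.81 between SESN1 and TNFRSF10B, 0.74 between ZMAT3 and FAS, and -0.82 between SESN2 and TP53I3. These correlations are descriptions, since samples of a line share their origin.

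**Figure D3:**
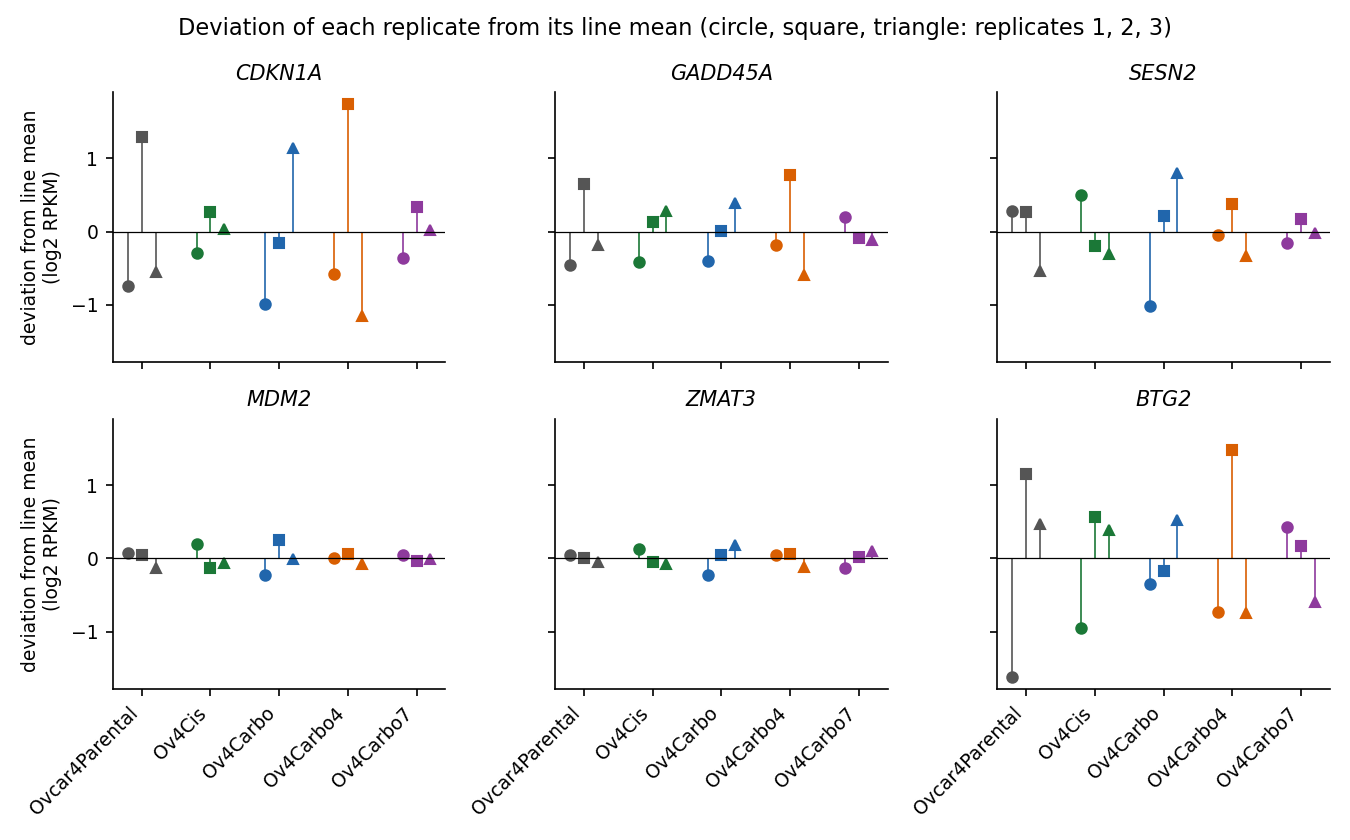
Deviation of each replicate from its line mean in log2 RPKM (vertical axis) for CDKN1A, GADD45A, SESN2, MDM2, ZMAT3 and BTG2 in the 5 lines (horizontal axis). The 4 genes CDKN1A, GADD45A, SESN2 and BTG2 rise together in Ov4Carbo4 replicate 2, where CDKN1A measured 5.15. MDM2 and ZMAT3 spread less, with their widest ranges in Ov4Carbo (0.48 and 0.40).

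Other known p53 targets, measured for 35 of 38 listed genes, moved in both directions as well. Against the parental line 6 were higher and 8 lower in Ov4Cis, 5 and 10 in Ov4Carbo, 5 and 5 in Ov4Carbo4, and 7 and 9 in Ov4Carbo7. The median log2 difference of these 35 lay between -0.13 and -0.07 in the 4 lines, against 0.02 to 0.07 over all genes. Of all genes, 19.8% were higher and 16.4% lower in Ov4Cis, 17.7% and 16.2% in Ov4Carbo, then 21.6% and 18.0% in Ov4Carbo4, and 22.2% and 20.4% in Ov4Carbo7. Among the 13 targets for arrest and repair, SFN and PLK2 changed in every resistant line and fell each time. SFN, which encodes the 14-3-3 sigma protein that blocks entry into mitosis, had a mean of 5.74 in the parental line and of -1.70 in Ov4Cis, against 4.22 in Ov4Carbo and, in its clones, 5.07 (Ov4Carbo4) and 3.63 (Ov4Carbo7). PLK2, a stress-responsive kinase of the polo family, fell by 1.45, 1.75, 1.83 and 1.00 on the log2 scale in Ov4Cis, Ov4Carbo, Ov4Carbo4 and Ov4Carbo7, respectively. DDB2, which recognises damaged DNA in nucleotide excision repair, rose by 0.49 in Ov4Cis and 0.55 in Ov4Carbo4. RPS27L, which encodes a ribosomal protein, rose by 0.92 in Ov4Carbo7. The calls of SFN in Ov4Carbo4 and of PLK2 and RPS27L in Ov4Carbo7 are lost with a term for the title ranges (adjusted p 0.089, 0.15 and 0.068). With that term, the count for this list in Ov4Carbo7 fell from 6 to 2, and without Ov4Carbo replicate 1 that in Ov4Carbo rose from 3 to 5.

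Among the 14 targets for cell death, 3 rose and 3 fell in Ov4Cis, 4 and 4 in Ov4Carbo, 3 and 2 in Ov4Carbo4, and 5 and 2 in Ov4Carbo7. Of all genes, between 17.7% and 22.2% rose and between 16.2% and 20.4% fell per line. The total was 2 in Ov4Cis without Ov4Cis replicate 3, 5 in Ov4Carbo without Ov4Carbo replicate 2, and 4 in Ov4Carbo7 without Ov4Carbo7 replicate 1. PHLDA3, which encodes an inhibitor of AKT, fell in all 4 lines, from 5.12 in the parental line to 3.41, 3.59, 2.55 and 4.13 in Ov4Cis, Ov4Carbo, Ov4Carbo4 and Ov4Carbo7. The last of these calls is lost without Ov4Carbo7 replicate 1 or parental replicate 2. CDIP1 and PIDD1, both pro-apoptotic, rose by 0.46 and 0.35 in Ov4Cis, 0.84 and 0.37 in Ov4Carbo, and 0.66 and 0.47 in Ov4Carbo4. The call of CDIP1 in Ov4Cis was narrow (adjusted p = 0.049 in limma) and lost in 11 alternative settings. That of PIDD1 is lost in Ov4Cis without Ov4Cis replicate 2 or 3 or parental replicate 1 or 2, and in Ov4Carbo without Ov4Carbo replicate 2 or parental replicate 1. BAX, the mitochondrial effector of apoptosis, fell by 0.43 in Ov4Cis, a call lost without Ov4Cis replicate 3 or parental replicate 2. APAF1, the core of the apoptosome, fell by 0.67 in Ov4Carbo and by 0.44 in Ov4Carbo7, the second call being lost without Ov4Carbo7 replicate 1. EI24, a protein of the endoplasmic reticulum, fell by 0.53 in Ov4Carbo4. With a term for the title ranges, the calls of EI24, CDIP1 and PIDD1 in Ov4Carbo4 and of PHLDA3 and APAF1 in Ov4Carbo7 did not pass. TP53INP1 and PMAIP1 (which encodes NOXA) rose by 1.38 and 0.97 in Ov4Carbo7, although PMAIP1 passed narrowly (adjusted p = 0.048) and was lost in 11 alternative settings.

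In the list of 8 targets in metabolism and autophagy, between 1 and 2 genes rose and between 1 and 3 fell per line. The shares of all genes were 17.7% to 22.2% for rises and 16.2% to 20.4% for falls. DRAM1, a lysosomal protein needed for p53-induced autophagy, rose by 0.65 in Ov4Cis and fell by 1.89 in Ov4Carbo4 (adjusted p = 1.2e-06 in limma). FUCA1, a lysosomal fucosidase, fell by 1.27 in Ov4Cis and by 0.51 in Ov4Carbo, and SUSD6 fell by 1.03 in Ov4Carbo and 0.64 in Ov4Carbo7. FDXR, a mitochondrial reductase, rose by 0.76 in Ov4Carbo, and TIGAR, which lowers glycolytic flux, by 0.41 in Ov4Carbo7. The call of FUCA1 in Ov4Carbo is lost without Ov4Carbo replicate 2 or 3 or parental replicate 1, that of FDXR without parental replicate 3, and that of TIGAR without Ov4Carbo7 replicate 1 or 3 or parental replicate 1 or 3.

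Of 17 measured regulators of p53 (MDM4 included), 3 were higher and 3 lower in Ov4Cis, 1 and 4 in Ov4Carbo, 3 and 1 in Ov4Carbo4, and 1 and 4 in Ov4Carbo7. Of all genes, 19.8% were higher and 16.4% lower in Ov4Cis, and 17.7% and 16.2% in Ov4Carbo. The shares were 21.6% and 18.0% in Ov4Carbo4, and 22.2% and 20.4% in Ov4Carbo7. USP7, which deubiquitinates both MDM2 and p53, fell by 0.41 in Ov4Cis and by 0.23 in Ov4Carbo7. HIPK2, a kinase that phosphorylates p53 for apoptosis, fell by 0.73 in Ov4Carbo and by 0.68 in Ov4Carbo7 but rose by 0.36 in Ov4Cis (adjusted p = 0.031 in limma). PPM1D, the phosphatase WIP1 that switches p53 signalling off, rose by 0.36 in Ov4Cis and by 0.58 in Ov4Carbo4, CHEK2 rose by 0.48 in Ov4Cis, and ATM by 0.48 in Ov4Carbo7. TP53BP1 rose by 0.34 in Ov4Carbo4 and fell by 0.32 in Ov4Carbo (adjusted p = 0.033), KAT5 fell by 0.48 in Ov4Carbo4, and CREBBP fell by 0.45 in Ov4Carbo. The fall of USP7 in Ov4Cis and both falls of HIPK2 passed an adjusted p of 0.05 in every alternative fit, though none reaches a log2 fold change of 1. The rise of HIPK2 in Ov4Cis, the fall of TP53BP1 in Ov4Carbo and the fall of USP7 in Ov4Carbo7 were not followed singly through the alternatives, and each of the other calls named was lost in at least 1 fit. Those of PPM1D and KAT5 in Ov4Carbo4 were lost with the title term alone. Without Ov4Carbo replicate 2 the count in Ov4Carbo fell from 5 to 1, without parental replicate 2 that in Ov4Carbo7 fell from 5 to 3, and with the title term that in Ov4Carbo4 fell from 4 to 1.

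Among relatives and partners of the 9 genes, SESN3 and CDKN1C rose in all 4 resistant lines. SESN3, the third sestrin, which is best known as a FOXO target, went from 1.75, 0.79 and 1.19 log2 RPKM in the parental line to 4.82, 4.12 and 3.92 in Ov4Cis, 4.88, 5.14 and 5.69 in Ov4Carbo, 5.11, 5.55 and 5.03 in Ov4Carbo4, and 5.70, 5.87 and 5.56 in Ov4Carbo7. Every resistant replicate was above every parental one. The rise was 8.22-fold in Ov4Cis, 15.9-fold in Ov4Carbo, 15.8-fold in Ov4Carbo4 and 22.1-fold in Ov4Carbo7 (adjusted p 2.9e-07 to 4.5e-06 in limma), and it held in every alternative fit. CDKN1C, which encodes p57, a relative of p21, rose by 0.90, 0.84 and 1.35 on the log2 scale in Ov4Carbo, Ov4Carbo4 and Ov4Carbo7, and by 1.04 in Ov4Cis. TNFSF10, which encodes TRAIL, the ligand of the receptor DR5, rose by 1.20 in Ov4Cis and fell by 1.72 in Ov4Carbo4. GADD45B, a relative of GADD45A, fell by 1.65 in Ov4Carbo7, and CDKN1B, which encodes p27, fell by 0.44 in Ov4Carbo. The call of CDKN1B is lost without Ov4Carbo replicate 2 or any parental replicate, and those of TNFSF10 in Ov4Carbo4 and GADD45B in Ov4Carbo7 with a term for the title ranges. Of the 11 genes measured, 7 were higher and 0 lower in Ov4Cis, where 19.8% of all genes were higher and 16.4% lower. That count was 4 without Ov4Cis replicate 3. The total of 4 in Ov4Carbo7 was 7 without Ov4Carbo replicate 1.

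Of 16 measured cell cycle genes that p53 represses through p21 and the DREAM complex, 11 fell and 0 rose in Ov4Carbo7, where 20.4% of all genes fell. In Ov4Carbo 6 fell and 0 rose (16.2% of all genes fell), in Ov4Cis 4 fell and 0 rose (16.4% of all genes fell), and in Ov4Carbo4 1 rose and 0 fell (21.6% of all genes rose). Most of the list did not pass in Ov4Carbo, Ov4Cis or Ov4Carbo4. Their median log2 difference was -0.38 in Ov4Carbo7, -0.34 in Ov4Carbo, -0.27 in Ov4Cis and -0.0045 in Ov4Carbo4. CDK1, the mitotic kinase, fell by 0.98 in Ov4Carbo7 and MYBL2, a transcription factor of proliferating cells, by 0.90. CCNA2 fell by 0.81 in Ov4Carbo and by 0.57 in Ov4Cis, CCNB2 by 0.50 in Ov4Carbo and BUB1 by 0.43 in Ov4Cis, while BIRC5 rose by 0.39 in Ov4Carbo4, a call lost in 12 alternative settings. The call of BUB1 is lost without Ov4Cis replicate 1 or parental replicate 2. CDKN1A had a mean of 1.75 ± 0.35 (SD, n = 3) in Ov4Carbo7, beside 1.77 in Ov4Cis. Its difference from the parental line in Ov4Carbo7 did not pass (log2 -0.85, SE 0.736, adjusted p = 0.38 in limma). Whether CDKN1A has a part in the fall of these genes was not tested. The count in Ov4Carbo7 was 6 without parental replicate 2 and 4 with a term for the title ranges, that in Ov4Cis was 2 without parental replicate 2, and that in Ov4Carbo ranged from 4 without Ov4Carbo replicate 3 to 9 without parental replicate 1 and was 1 with only the 2 groups compared.

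**Figure D4:**
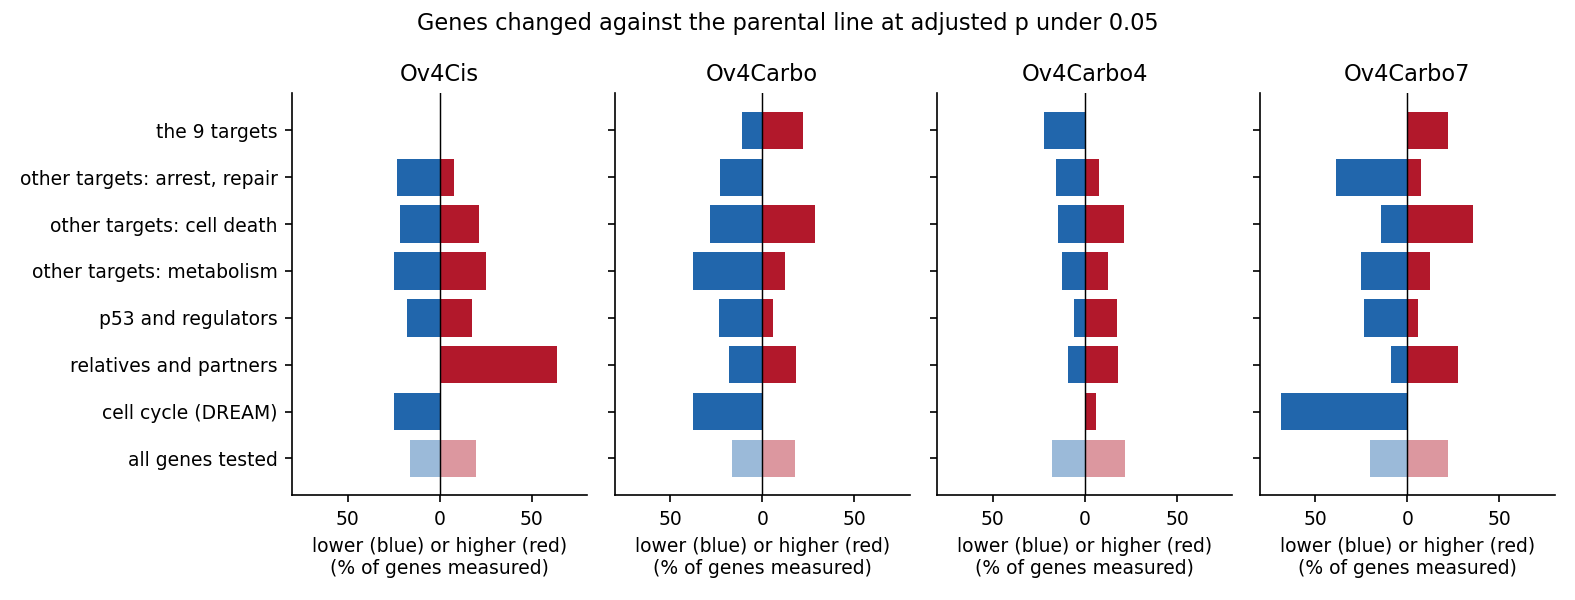
Share of measured genes that changed against Ovcar4Parental at an adjusted p under 0.05, lower to the left and higher to the right in % of the genes of each list, for the 9 targets, 6 other lists and all genes tested (pale bars). In Ov4Carbo7 11 of 16 cell cycle genes were lower, and in Ov4Cis none of the 9 targets passed.

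Genes next to some of the targets on their chromosomes were called in the same direction as the target in the clones. Of the 10 genes of the table nearest to FAS on chromosome 10, 8 were higher and 0 lower in Ov4Carbo7 than in Ov4Carbo4, with a median log2 difference of 1.23 (24.0% of all genes were higher). RNLS was higher by 3.86, ACTA2 by 3.91, and the interferon-induced genes IFIT1 and IFIT2 by 1.95 and 1.98. ACTA2 overlaps FAS on the opposite strand, so part of the reads of these genes could not be separated without strand. Its mean over all samples was -0.99 log2 RPKM, below the 1.63 of FAS, and it was lower than in the parental line in both clones, by 5.62 and 1.71. Around SESN1 on chromosome 6, 8 of 10 neighbours were lower and 0 higher in Ov4Carbo4 than in Ov4Carbo, with a median of -0.96 (19.2% of all genes were lower), and 8 were lower than in the parental line, with a median of -0.66 (18.0% of all genes). FOXO3, 4 genes away, fell by 1.58 in Ov4Carbo4 against the parental line and CD164 by 1.03, while SESN1 itself stood at -0.10. Around TNFRSF10B on chromosome 8, 5 of 10 neighbours were higher and 0 lower in Ov4Carbo7 than in the parental line (22.2% of all genes were higher), among them TNFRSF10A, another TRAIL receptor, by 0.71. Around ZMAT3 on chromosome 3, 5 of 10 neighbours were lower and 0 higher in Ov4Carbo4 than in the parental line, PIK3CA among them by -0.42. The directions did not match for every call. Around GADD45A on chromosome 1, 8 of 10 neighbours were higher and 2 lower in Ov4Carbo4 than in Ov4Carbo (23.1% of all genes were higher). GADD45A itself fell by 1.13 there. Around FAS the calls in Ov4Carbo4 against the parental line were mixed, with 4 neighbours lower and 2 higher. Their median was -0.38, the same direction as FAS, which fell by 2.33. Of all genes, 18.0% were lower and 21.6% higher there. Whether the neighbours' shifts have a part in those of the targets was not tested.

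**Figure D5:**
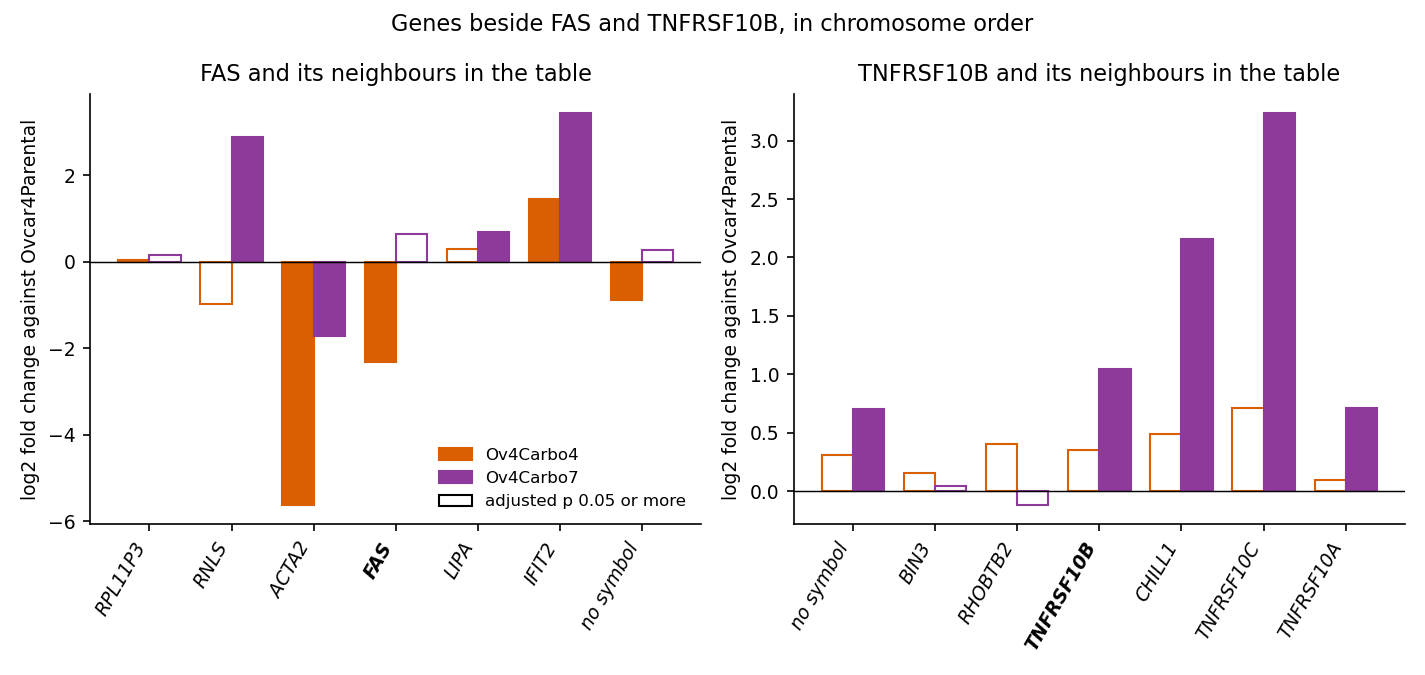
log2 fold change against Ovcar4Parental (vertical axis) of FAS, TNFRSF10B and the 3 genes of the table on either side of each in chromosome order (horizontal axis), for Ov4Carbo4 and Ov4Carbo7, with unfilled bars where the adjusted p was 0.05 or more. ACTA2 falls by 5.62 in Ov4Carbo4 beside FAS, and TNFRSF10A rises by 0.71 in Ov4Carbo7 beside TNFRSF10B.

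Among all genes with a mean of at least 1 log2 RPKM, those whose values over the 15 samples were most like each target were named as a description. CDKN1A was most like RPL21 (0.87), a ribosomal protein gene with many near-identical pseudogenes whose reads may be split, and VPS35L (0.80). FAS was most like CITED2 and NCEH1 (Pearson's r of 0.97 for both), and TNFRSF10B was most like RFNG (0.97) and CD70 (0.96). SESN2 was most like GPT2, a mitochondrial alanine aminotransferase, and MTHFD2, a mitochondrial folate enzyme (0.93 for both). TP53I3 was most like HIVEP3 and BTBD6 (0.94 for both), SESN1 most like ANKRD42 (0.94) and ARAP1 (0.93), and ZMAT3 most like PORCN (0.94) and NARS1 (0.92). MDM2 was most like ZNHIT1 and COA1 (0.92 for both), and GADD45A was most like TXNRD3 (0.83) and TIGD2 (0.81). None of the 9 targets was among the pairs named for another.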

How the data were processed

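Polyadenylated RNA of 15 samples, 3 from each of 5 lines, was analysed. The deposited values are log2 RPKM that the authors normalised with cqn (conditional quantile normalisation, a correction for GC content and length), going by the name of the table. Reads were aligned with BWA 0.7.15-r1140 and counted with HTSeq on hg19 (GRCh37), per the submitters' processing notes. The annotation, strandedness and cqn settings are not given in the sources used here. The table holds 16604 genes, and no depth can be read from it.

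With limma 3.58.1 (R 4.3.3), a linear model with 1 coefficient per line was fitted to every gene over the 15 samples and moderated by eBayes. Tests are two-sided, with Benjamini-Hochberg adjustment within a contrast over the whole table. The fit was tested on simulated data. Symbols were looked up by Ensembl identifier (15585 genes matched), neighbours and overlaps from GENCODE v29 (GRCh38, 16499 genes placed, used for order only), and promoters from RefSeq (GRCh38.p14). p-values measure the spread between these replicates.

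The 9 genes and the lists were chosen with earlier results of these data known. All 9 targets and MDM4 are named, and some listed genes are not reported here. Each other list names, per contrast with the parental line, the 2 largest rises and falls among changed genes whose replicates do not overlap and whose higher mean is at least log2 RPKM 1; CDKN1C in Ov4Cis, the neighbours and BTG2 were named after their values were seen. Alternatives changed the variance prior, scaling, low-value filter, pseudocount (1), samples in the fit, replicate block, a term for the 2 ranges of title numbers, thresholds, and left out each replicate.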

Additional observations from a re-analysis of the deposited data

How the results depend on the processing

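Quantile normalisation and centring on the sample median changed no call among the 72 values of the 9 genes in 8 comparisons, and no value past the test in either fit turned its direction (a change of sign was counted only where a value passed). Of the counts of changed targets, that for Ov4Cis against the parental line moved from 0 to 1 with limma-trend, with log2(RPKM + 1), after removal of genes whose mean lay under log2 RPKM 1, and with only the 2 groups compared, and to 3 with a term for the title ranges. Ov4Carbo against the parental line moved from 3 to 1 with adjusted p under 0.01 and with only the 2 groups compared, to 0 when a log2 fold change of 1 or more was also required, and to 6 with the title term. Ov4Carbo4 against the parental line moved from 2 to 1 with either stricter threshold, and Ov4Carbo7 from 2 to 1 with the fold threshold. With the title term ZMAT3 was lost and TNFRSF10B passed in Ov4Carbo4. The count in Ov4Carbo7 was 3 with log2(RPKM + 1) and with only the 2 groups compared, where FAS passed too, and 3 with the title term, where SESN1 was lost and SESN2 and TP53I3 passed. Ov4Carbo4 against Ov4Carbo moved from 5 to 2 with either stricter threshold and with only the 2 groups compared, and to 1 with the title term. Ov4Carbo7 against Ov4Carbo moved from 2 to 1 with either stricter threshold, to 4 with limma-trend, log2(RPKM + 1) or the filter, and to 0 with the title term. Ov4Carbo7 against Ov4Carbo4 moved from 4 to 1 with the fold threshold, Ov4Cis against Ov4Carbo from 4 to 2 with only the 2 groups compared, and the F-test count from 8 to 5 with adjusted p under 0.01. The title term gives the same values as leaving out Ov4Carbo replicate 1 in comparisons without a clone, since the line of that replicate alone has samples in both ranges. Where a clone is compared with the parental line or Ov4Carbo, the term rests on that replicate against the rest of its line. The cause of the other moves was not tested.

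Leaving out each replicate in turn gave counts of 0 to 3 for Ov4Cis, 1 to 6 for Ov4Carbo, 1 to 2 for Ov4Carbo4 and 2 to 5 for Ov4Carbo7 against the parental line, 2 to 7 for Ov4Carbo4 and 1 to 5 for Ov4Carbo7 against Ov4Carbo, 4 to 5 between the clones, 3 to 6 for Ov4Cis against Ov4Carbo, and 6 to 9 in the F-test. With a replicate block, the counts were 3 for Ov4Carbo7 against Ov4Carbo, 5 between the clones and 6 for Ov4Cis against Ov4Carbo, and those of the other 6 comparisons did not move. The numbers do not pair the samples: 12 of 30 same-numbered pairs had deviations correlated above 0.1 (range -0.50 to 0.54), and 6 of 15 samples were closest to their own number. Depth is unknown, so counting error is not known, and low values such as those of FAS in Ov4Carbo4 rest on an unknown number of reads. The alternatives for the other lists, MDM4 and the named list genes were added after the data were seen.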
